A study of Mus musculus with 24 samples.

Results

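Aminoacyl-tRNA synthetases were followed in whole hearts of 90-day-old mice of 4 genotypes, with 6 hearts each. The listed family held 34 genes, and the members were all probe sets annotated to exactly 1 of those symbols. The 33 genes that matched were read by 68 of the 45037 probe sets tested. Of these, 40 probe sets belonged to 19 genes of the cytosolic class and 28 to 14 genes of mitochondrial enzymes, whose symbols end in 2. Dars was not matched and is not analysed here. ARG hearts carried the arginine form of the human beta1-adrenergic receptor, beta1-Arg389, and GLY hearts carried its glycine form, beta1-Gly389. AC5 hearts carried human adenylyl cyclase type 5, and NTG hearts came from non-transgenic mice. In all 3 transgenic genotypes the alpha-myosin heavy chain promoter drove the human cDNA in cardiac myocytes, while the RNA was taken from the whole heart. Each value is a ratio, read from the values as set against NTG hearts. Their mean log2 ratio was near 0 for most members and lowest, at -0.12, for Rars and for Iars at 1452154_at. Over the 68 probe sets the mean SD between hearts on the log2 scale was 0.17 in ARG, 0.228 in GLY, 0.166 in AC5 and 0.131 in NTG hearts.

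Synthetases join amino acids to the transfer RNAs that carry them to the ribosome, and most act on a single kind of amino acid. Separate nuclear genes supply most of the enzymes of the cytosol and of the mitochondrion. Gars and Kars are exceptions, since each makes both forms, and they were kept in the cytosolic class. Several cytosolic synthetase genes are known targets of the transcription factor ATF4, which acts when amino acids run short or the endoplasmic reticulum is stressed. The heart is rich in mitochondria, whose own ribosomes make subunits of the respiratory chain.

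In ARG hearts the called cytosolic genes were higher and the called mitochondrial genes lower than in NTG hearts. Of the 40 cytosolic probe sets 4 rose and 0 fell, while of the 28 mitochondrial probe sets 0 rose and 8 fell. A probe set is said to rise or fall where its p from limma, adjusted by the Benjamini-Hochberg method over all probe sets tested, was under 0.05. By that rule 9.67% of all probe sets were called between ARG and NTG hearts, 4.04% of all as rises and 5.63% as falls. Rises thus made up 10.0% of the cytosolic probe sets and falls 28.6% of the mitochondrial ones, both above those shares. The cytosolic genes that rose were Sars, Gars and Aars, and the mitochondrial genes that fell were Lars2, Hars2, Nars2, Yars2, Iars2 and Cars2. Without GLY hearts 1 and 3 and ARG heart 1, which had the lowest array weights, 8 cytosolic probe sets rose and 10 mitochondrial ones fell. Replicates 1 to 3 alone gave 4 calls and replicates 4 to 6 alone gave 9. Over all probe sets the calls numbered 4355 with all hearts and 5931 without those 3 hearts. They numbered 1302 in replicates 1 to 3 and 2517 in replicates 4 to 6.

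Sars, the seryl-tRNA synthetase gene, had the largest cytosolic rise. Its ratio at 1426257_a_at ran from 1.42 to 1.95 with a median of 1.53 in ARG hearts, and from 0.895 to 1.14 with a median of 1.06 in NTG hearts. Every ARG heart lay above every NTG heart. The log2 change was 0.63 ± 0.14 (SE of the fitted difference), a fold of 1.54, with an adjusted p of 0.00406 by limma. The other Sars probe set, 1452000_s_at, gave 0.62 with an adjusted p of 0.00248. After quantile normalization these log2 changes were 0.44 and 0.43, with adjusted p of 0.0589 and 0.0556, and both calls were lost.

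Gars, the glycyl-tRNA synthetase gene, is read by 1 probe set. Its ratio ran from 1.27 to 1.78 in ARG hearts with a median of 1.45, and from 0.931 to 1.06 in NTG hearts with a median of 1.01. The groups did not overlap, and the log2 change was 0.58 ± 0.14 with an adjusted p of 0.00561. Aars, the alanyl-tRNA synthetase gene, ran from 1.24 to 1.71 with a median of 1.38 in ARG hearts, against 0.898 to 1.08 with a median of 0.978 in NTG hearts. These groups did not overlap either. The share of all probe sets without overlap was not counted for this or any other comparison of genotypes given here. These values are from 1451083_s_at, where the log2 change was 0.52 ± 0.11 with an adjusted p of 0.0027. The other Aars probe set gave 0.44 with an adjusted p of 0.115, and there 4 of 6 ARG hearts lay above every NTG heart. The suffixes _s_at and _x_at mark probe sets whose probes may match more than 1 transcript. The remaining 36 cytosolic probe sets had log2 changes between -0.19 and 0.44 and were not called. Eprs at 1426713_s_at, Cars at 1452394_at and Yars came nearest, with changes of 0.34, 0.35 and 0.34 and adjusted p of 0.056, 0.0635 and 0.0929. The other Cars probe set gave 0.11, and those of Eprs gave 0.11, 0.23 and 0.30.

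**Figure D1:**
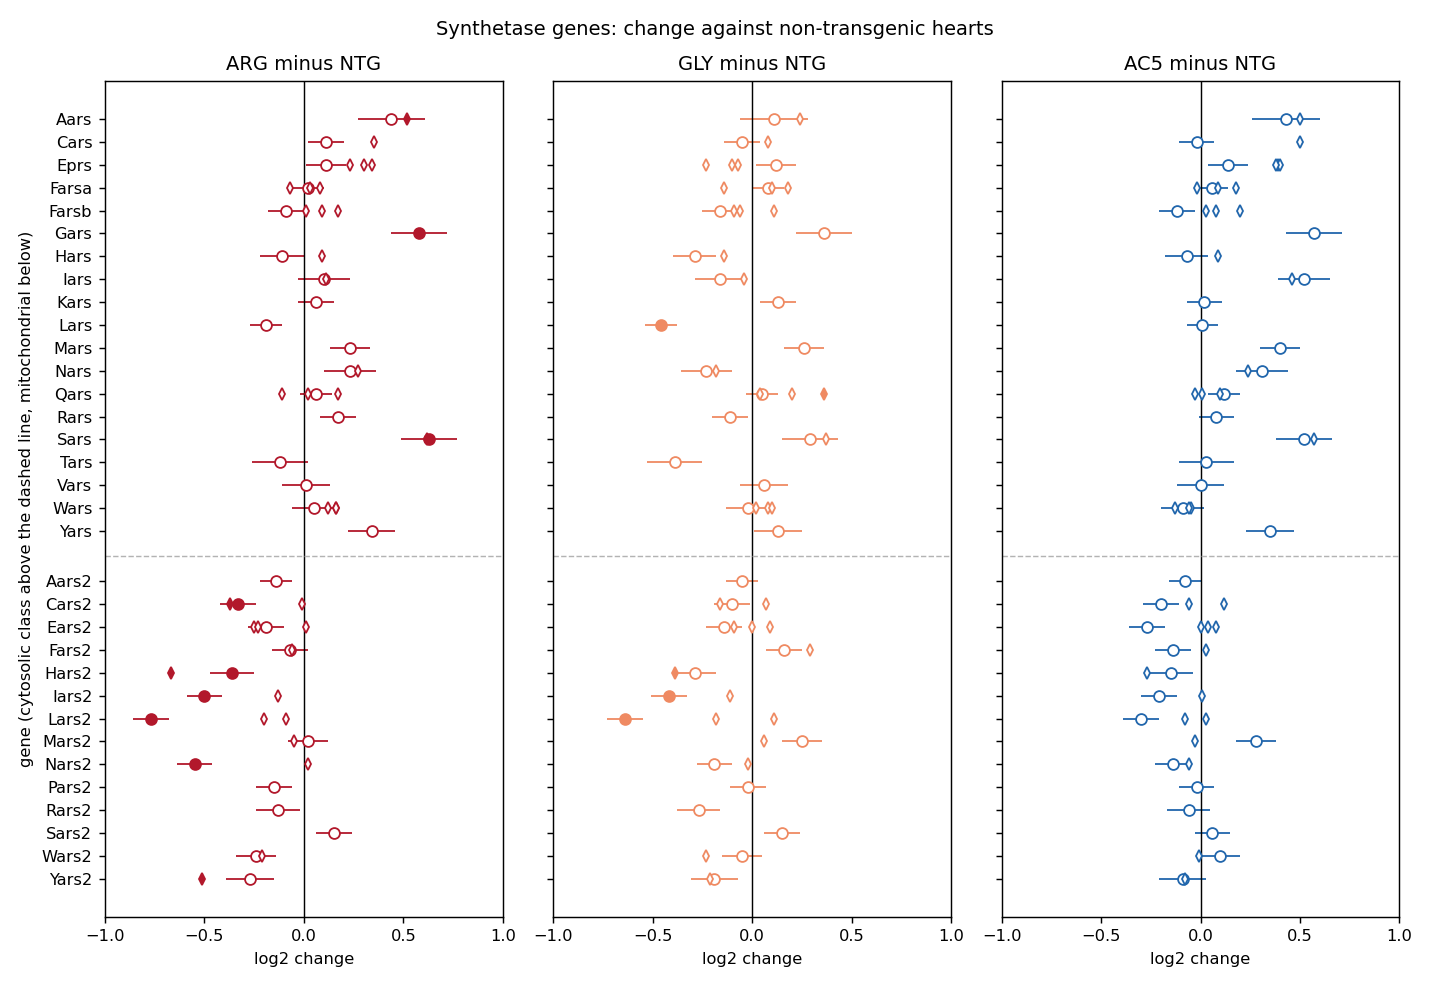
Log2 change of each synthetase gene in ARG, GLY and AC5 hearts against NTG hearts (6 hearts each), cytosolic genes above the dashed line and mitochondrial genes below it. Circles are the probe set taken for each gene with the SE of the fitted difference, diamonds its other probe sets, and filled symbols passed an adjusted p under 0.05 by limma. In ARG hearts the filled symbols are 4 cytosolic rises and 8 mitochondrial falls, and in AC5 hearts 0 symbols are filled.

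Lars2, which charges mitochondrial leucine transfer RNA, fell most. Its ratio at 1435682_at ran from 0.472 to 0.756 with a median of 0.601 in ARG hearts, and from 0.885 to 1.18 with a median of 1.03 in NTG hearts. Every ARG heart lay below every NTG heart. The log2 change was -0.77 ± 0.09, a fold of 0.586, with an adjusted p of 3.04e-06. The other 2 Lars2 probe sets disagreed in size, at -0.20 and -0.09, and were not called.

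Hars2, the mitochondrial histidyl enzyme, had ratios at 1419158_a_at from 0.478 to 0.716 with a median of 0.633 in ARG hearts, against 0.851 to 1.14 with a median of 0.981 in NTG hearts. Its log2 change was -0.67 ± 0.10 with an adjusted p of 6e-05, and its second probe set gave -0.36 with an adjusted p of 0.0377. All 6 ARG hearts lay below the NTG hearts at the first probe set. Nars2, which charges mitochondrial asparagine transfer RNA, ran from 0.551 to 0.804 with a median of 0.728 in ARG hearts, against 0.899 to 1.15 with a median of 1.02 in NTG hearts. Its log2 change was -0.55 ± 0.09 with an adjusted p of 0.000104, while its other probe set gave 0.02. At the called probe set the groups did not overlap.

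Iars2, the mitochondrial isoleucyl enzyme, ran from 0.582 to 0.801 with a median of 0.711 in ARG hearts, against 0.892 to 1.07 with a median of 1.01 in NTG hearts. The groups did not overlap, and the log2 change was -0.50 ± 0.09 with an adjusted p of 0.000664. Its other probe set, 1441665_at, gave -0.13 with an adjusted p of 0.498. Yars2, the mitochondrial tyrosyl enzyme, did overlap between the groups. It ran from 0.558 to 1.01 with a median of 0.715 in ARG hearts and from 0.838 to 1.26 with a median of 1.05 in NTG hearts. Its log2 change at 1439442_x_at was -0.51 ± 0.12 with an adjusted p of 0.00604, and its other probe set gave -0.27 with an adjusted p of 0.169. Cars2, the mitochondrial cysteinyl enzyme, fell by 0.33 and 0.37 on the log2 scale at 2 probe sets, with adjusted p of 0.0251 and 0.025, and had a change of -0.01 at another. Leaving out ARG heart 3 alone raised those 2 adjusted p values to 0.062 and 0.0747, and the second Hars2 value to 0.109. Those calls were lost by removing any of 4, 4 and 7 single hearts. They were also lost after quantile normalization, with adjusted p of 0.0924 and 0.0566 for Cars2 and 0.0556 for Hars2, and median centring gave 0.0564 for that Hars2 probe set. The other 20 mitochondrial probe sets, among them those of Mars2, Sars2 and Fars2, lay between -0.27 and 0.15 and were not called.

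**Figure D2:**
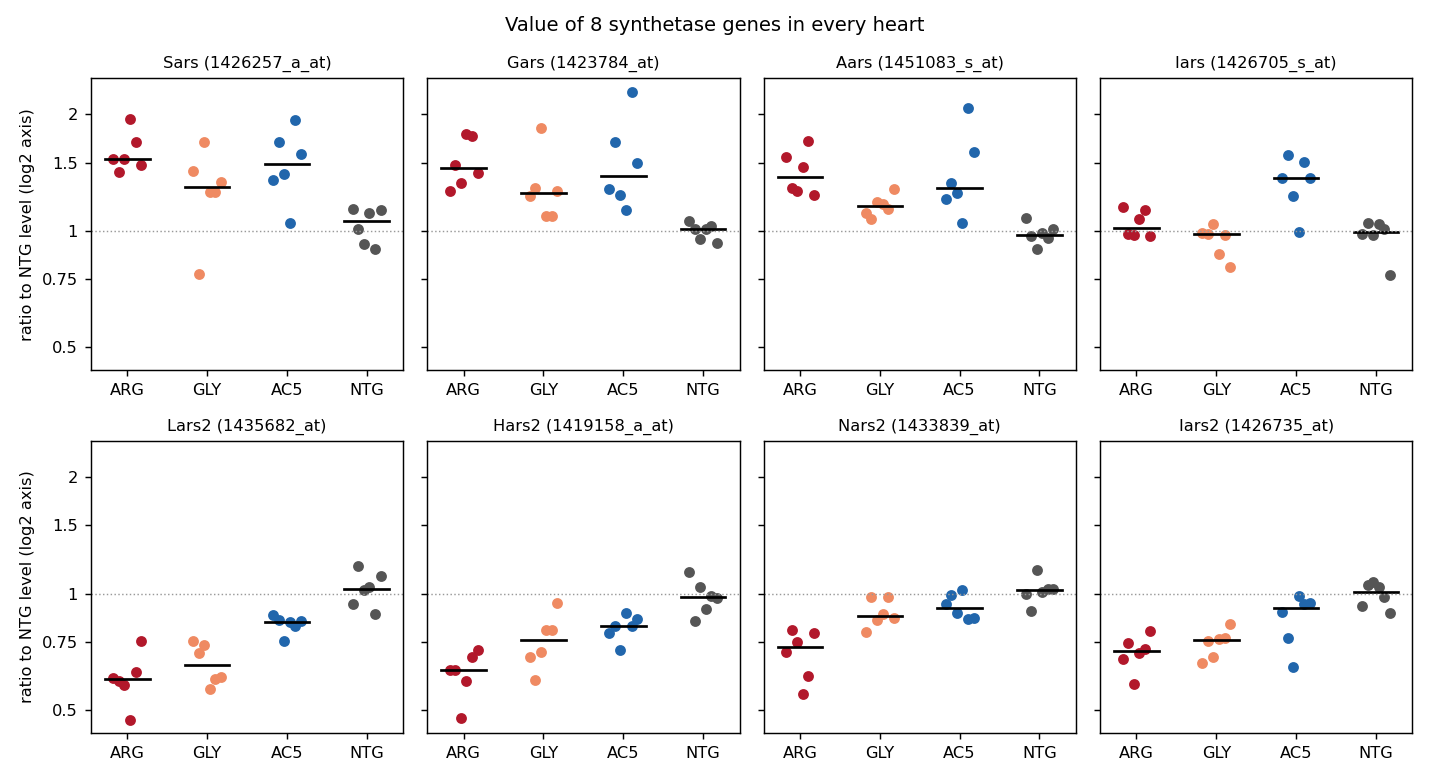
Ratio to the NTG level (log2 axis) of 4 cytosolic genes (top) and 4 mitochondrial genes (bottom) in every ARG, GLY, AC5 and NTG heart, with the median of 6 hearts as a bar. Each gene is shown at its called probe set with the largest change, for Iars that between ARG and AC5 hearts. At the probe sets shown, every ARG heart lies above every NTG heart for Sars, Gars and Aars. For Lars2, Hars2, Nars2 and Iars2 every ARG heart lies below. Yars2 is not shown. Its change in ARG hearts (-0.51) was slightly larger than that of Iars2 (-0.50), and its ARG and NTG hearts overlapped.

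With 1 probe set per gene, the median log2 change in ARG hearts was 0.10 over the 19 cytosolic genes and -0.21 over the 14 mitochondrial genes, against -0.01 over all 18193 genes. Of the cytosolic genes 15 of 19 lay above 0, and of the mitochondrial genes 2 of 14, beside 48.4% of all genes. The gap between the class medians was 0.31. It was 0.34 over replicates 1 to 3 alone and 0.33 over replicates 4 to 6 alone. The median over all probe sets of the absolute mean log2 ratio was 0.0296 in NTG replicates 1 to 3 and 0.0341 in NTG replicates 4 to 6, against 0.0417 in NTG replicates 1, 3 and 5. The labels do not state whether ratios were taken separately for replicates 1 to 3 and 4 to 6. If they were, the spread of the NTG hearts would be too small, and with it the SEs and the overlap between groups. That was not tested. Within single hearts the cytosolic median minus the mitochondrial median ran from 0.21 to 0.46 in ARG hearts, against -0.13 to 0.04 in NTG hearts. Genes of a class share their arrays, so these medians are descriptions.

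The gap was also read within single amino acids. The pairs use the same probe sets and changes as the class medians, so they are not separate evidence. For 11 amino acids both a cytosolic and a mitochondrial gene were measured, and in ARG hearts the cytosolic change was the higher one in 11 of 11. The widest gap was that of the asparaginyl pair, with 0.23 for Nars and -0.55 for Nars2. The narrowest was that of the methionyl pair, with 0.23 for Mars and 0.02 for Mars2. In GLY hearts the cytosolic change was the higher one in 9 of 11 pairs, by 0.05 or less in the methionyl, cysteinyl and tryptophanyl ones, and in AC5 hearts in 10 of 11. All 3 comparisons use the same 6 NTG hearts, so the counts are not independent.

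**Figure D3:**
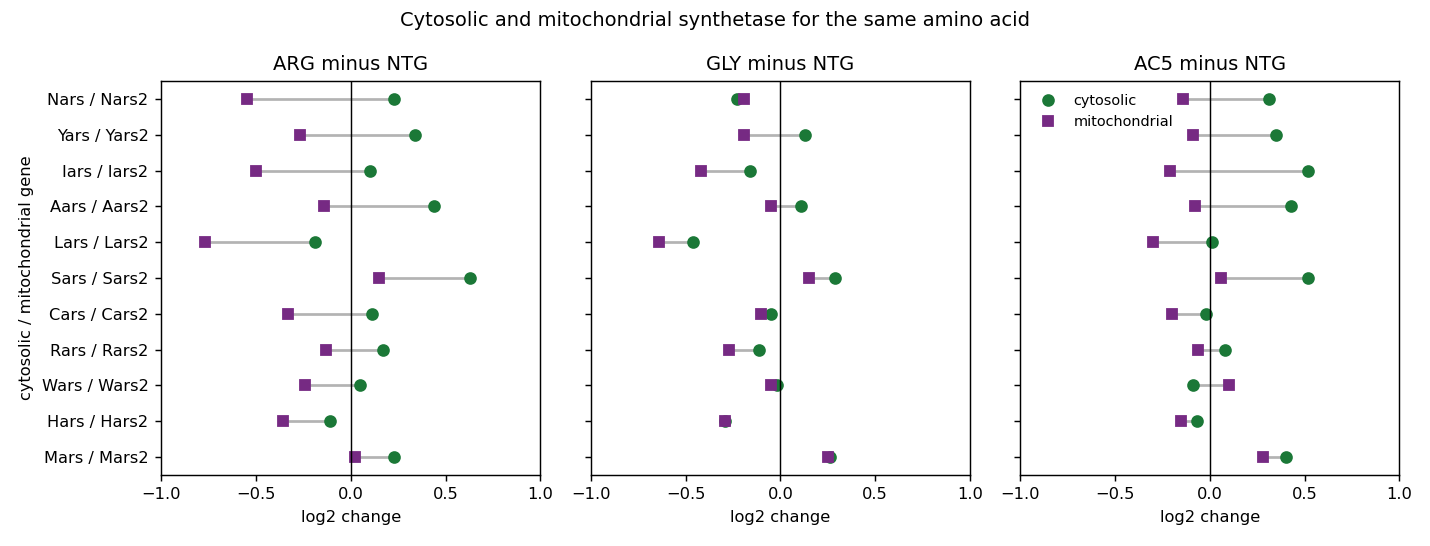
Log2 change against NTG hearts of the cytosolic gene (circles) and the mitochondrial gene (squares) for the same amino acid in ARG, GLY and AC5 hearts, 1 probe set per gene. The circle lies to the right of the square in 11 of 11 pairs in ARG hearts, 9 of 11 in GLY hearts and 10 of 11 in AC5 hearts.

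Promoter sequence is shown because ATF4 binds a short element at several synthetase genes. Windows of 250 bases before to 50 bases after the annotated start were taken from RefSeq (GRCm38.p6) for 12 cytosolic genes and 12 mitochondrial genes, of which Aars2 had 2 starts. The other member genes were not searched. The core of the element, TGATGNAA on either strand, occurred in 5 of the 12 cytosolic windows and in 0 of the 13 mitochondrial windows, beside 3.969% of all 32851 windows of that length. The cyclic AMP response element TGACGTCA occurred in 0 windows of either class, beside 1.79% of all windows. Counted from the annotated start, the cores shown begin after it for Aars (base 10), Iars (base 8) and Yars (base 4). They begin before it for Gars (base -30) and Tars (base -15). In the following 30-base stretches, written 5′ to 3′ along the gene's strand, the capitals mark the core as read on that strand.
Aars, chr8:111033840-111033869, plus strand: agcgggtcactTTTCATCAgagcgctctga
Gars, chr6:55037960-55037989, plus strand: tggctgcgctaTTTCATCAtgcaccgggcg
Iars, chr13:49682126-49682155, plus strand: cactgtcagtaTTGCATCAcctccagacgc
Tars, chr15:11399655-11399684, minus strand: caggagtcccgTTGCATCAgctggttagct
Yars, chr4:129189895-129189924, plus strand: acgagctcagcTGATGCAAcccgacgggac

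Of these 5 genes Aars and Gars rose in ARG hearts, while Iars, Tars and Yars had log2 changes of 0.10, -0.12 and 0.34 and were not called. Sars, the cytosolic gene with the largest rise, had no such letters in its window. The 250 bases before the start are given for a riser with the core (Gars), a riser without it (Sars) and the gene that fell most (Lars2), with the core in capitals.
Gars, chr6:55037751-55038000, plus strand: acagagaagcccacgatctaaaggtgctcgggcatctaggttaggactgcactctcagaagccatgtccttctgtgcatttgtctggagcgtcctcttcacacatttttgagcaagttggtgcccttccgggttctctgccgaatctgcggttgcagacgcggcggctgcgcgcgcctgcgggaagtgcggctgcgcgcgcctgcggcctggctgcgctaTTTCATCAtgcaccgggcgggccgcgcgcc
Sars, chr3:108445260-108445509, minus strand: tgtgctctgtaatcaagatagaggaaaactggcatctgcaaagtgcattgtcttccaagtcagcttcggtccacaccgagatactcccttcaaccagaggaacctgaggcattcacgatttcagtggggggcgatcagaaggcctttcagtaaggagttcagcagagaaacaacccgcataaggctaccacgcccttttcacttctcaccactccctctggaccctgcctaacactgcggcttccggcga
Lars2, chr9:123366677-123366926, plus strand: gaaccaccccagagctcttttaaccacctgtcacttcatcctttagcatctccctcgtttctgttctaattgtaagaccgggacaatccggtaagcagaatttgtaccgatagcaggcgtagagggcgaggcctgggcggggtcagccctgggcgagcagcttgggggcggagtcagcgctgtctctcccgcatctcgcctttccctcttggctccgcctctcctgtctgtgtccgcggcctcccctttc

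In GLY hearts Lars, Lars2, Iars2 and Hars2 fell and Qars rose. Of the cytosolic probe sets 1 rose and 1 fell, and of the mitochondrial ones 0 rose and 3 fell, beside 5.08% of all probe sets called (1.55% as rises and 3.53% as falls). Falls made up 10.7% of the mitochondrial probe sets, while the cytosolic calls, at 2.5% in each direction, lay near the shares over all probe sets. Lars, the cytosolic leucyl enzyme, ran from 0.606 to 0.849 with a median of 0.714 in GLY hearts, against 0.901 to 1.06 with a median of 1.02 in NTG hearts. Every GLY heart lay below every NTG heart, and the log2 change was -0.46 ± 0.08 with an adjusted p of 0.00156. Its mitochondrial partner Lars2 ran from 0.565 to 0.753 with a median of 0.655 in GLY hearts, below all the NTG hearts. Its log2 change was -0.64 ± 0.09 with an adjusted p of 0.000233. The other Lars2 probe sets gave -0.18 and 0.11, with adjusted p of 0.397 and 0.498, and were not called.

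Iars2 ran from 0.662 to 0.835 with a median of 0.758 in GLY hearts, again below all NTG hearts, and its log2 change was -0.42 ± 0.09 with an adjusted p of 0.00934, while its other probe set gave -0.11. Hars2 ran from 0.599 to 0.947 with a median of 0.757 in GLY hearts, overlapping the NTG hearts. Its log2 change was -0.39 ± 0.10 with an adjusted p of 0.0258, while its other probe set gave -0.29 and was not called. The cytosolic riser was Qars, the glutaminyl enzyme, at 1456213_x_at. It ran from 0.946 to 1.57 with a median of 1.26 in GLY hearts, against 0.874 to 1.10 with a median of 0.989 in NTG hearts, and its log2 change was 0.36 ± 0.09 with an adjusted p of 0.0204. The other Qars probe sets gave 0.05, 0.04 and 0.20 and were not called. Sars and Gars had log2 changes of 0.29 and 0.36 at the probe sets described first above and were not called. For Gars all 6 GLY hearts lay above the NTG hearts, with a lowest ratio of 1.09 against an NTG highest of 1.06. Without GLY hearts 1 and 3 and ARG heart 1 only Lars and Lars2 were called, with adjusted p of 0.0145 and 0.000249. After quantile normalization the same genes alone were called, with adjusted p of 0.0113 and 0.00372. Leaving out GLY heart 1 or 3 alone raised the adjusted p of Qars to 0.0625 or 0.0637 and that of Hars2 to 0.0636 or 0.062. Replicates 1 to 3 alone gave 9 calls and replicates 4 to 6 alone gave 1. Over all probe sets the calls numbered 2286 with all hearts, 633 after quantile normalization and 1312 without those 3 hearts. They numbered 2740 in replicates 1 to 3 and 72 in replicates 4 to 6. The class medians were 0.05 for cytosolic and -0.12 for mitochondrial genes, against 0.02 for all genes.

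In AC5 hearts 0 of the 68 probe sets were called by limma, beside 0.142% of all probe sets (0.0688% as rises and 0.0733% as falls). At an unadjusted p under 0.05 there were 22 of 68, made up of 16 of 40 cytosolic and 6 of 28 mitochondrial probe sets, beside 7.26% of all probe sets. The cytosolic genes with changes of 0.46 or more are given here by their values, since none passed. Gars had a log2 change of 0.57 with an adjusted p of 0.112, and its ratios ran from 1.13 to 2.29 in AC5 hearts, all above the NTG hearts. Sars had 0.57 with an adjusted p of 0.0866 at 1452000_s_at, and Aars had 0.50 with 0.0778 at 1451083_s_at. Cars, the cysteinyl enzyme, had 0.50 with an adjusted p of 0.0987 at 1452394_at, while its other probe set gave -0.02. Iars, the isoleucyl enzyme, came nearest to the threshold, with 0.46 ± 0.10 and an adjusted p of 0.0521 at 1426705_s_at, and had 0.52 with 0.123 at 1452154_at. AC5 heart 4 had the lowest ratio of the 6 for Sars (1426257_a_at), Gars, Aars and Iars, at 1.05, 1.13, 1.05 and 0.991. AC5 heart 5 had the highest for Sars, Gars and Aars, at 1.93, 2.29 and 2.08.

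The count for AC5 depended on the setting. It was 9 cytosolic rises after quantile normalization and also 9 with array weights, each read from Aars, Cars, Eprs, Gars, Iars, Mars and Sars. It was 3 with AC5 and NTG hearts fitted alone, 4 without GLY hearts 1 and 3 and ARG heart 1, and 6 without AC5 heart 4. Calls over all probe sets moved too. They went from 64 (31 rises) to 398 (154 rises) after quantile normalization and 525 (204 rises) with array weights. In the other 3 settings they were 299, 188 and 90. The class medians were 0.08 and -0.11. Lars2 had a change of -0.30 ± 0.09 at 1435682_at with an adjusted p of 0.306 and was not called. All 6 AC5 hearts lay below the NTG hearts there, but how many of all probe sets part in that way was not counted. The other Lars2 probe sets gave -0.08 and 0.03.

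Direct comparison of the receptor variants gave 1 called probe set of 68, a share near that over all probe sets. Of all probe sets 1.51% were called between ARG and GLY hearts (0.793% as rises and 0.713% as falls). Nars2 had a median ratio of 0.728 in ARG hearts and 0.877 in GLY hearts at 1433839_at. Its log2 difference was -0.36 ± 0.09 with an adjusted p of 0.0347, while its other probe set gave 0.04 and was not called. At the called probe set ARG heart 2 lay above GLY heart 1, so the groups overlapped. Leaving out GLY heart 2, 4 or 5, or ARG heart 4 or 5, ended that call, with adjusted p between 0.0554 and 0.11. The cytosolic genes Eprs (1426713_s_at) and Nars (1428666_at) differed by 0.41 and 0.46, with adjusted p of 0.0656 and 0.0757. Without GLY heart 6 the count was 6 and without ARG heart 1 it was 3. Over all probe sets the calls then went from 678 to 1781 and 1041.

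Comparisons of the receptor hearts with AC5 hearts were added after the values were seen, and so was the choice of the genes named for them. Between ARG and AC5 hearts 5 probe sets fell and 0 rose, beside 4.93% of all probe sets (2.52% as rises and 2.41% as falls). They were Lars2 (-0.47 ± 0.09, adjusted p = 0.00244), Nars2 (-0.41 ± 0.09, adjusted p = 0.00449), Hars2 (-0.40 ± 0.10, adjusted p = 0.019), Yars2 (-0.43 ± 0.12, adjusted p = 0.0385) and the cytosolic Iars (-0.35 ± 0.10, adjusted p = 0.0369). After quantile normalization the log2 differences of the mitochondrial genes were -0.30 for Lars2, -0.33 for Nars2, -0.23 for Hars2 and -0.35 for Yars2. Their adjusted p were then 0.226, 0.0527, 0.375 and 0.291, so all 4 mitochondrial calls were lost. Removing any of 9 single hearts ended the Yars2 call, any of 8 the Iars call and any of 2 the Hars2 call. Iars had a median ratio of 1.02 in ARG hearts and 1.37 in AC5 hearts at its called probe set. The other probe sets of the 5 genes were not called. They gave -0.12 and -0.12 for Lars2, 0.08 for Nars2, -0.21 for Hars2, -0.18 for Yars2 and -0.42 for Iars.

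Between GLY and AC5 hearts 5 probe sets fell and 0 rose, all of them cytosolic, beside 0.693% of all probe sets (0.255% as rises and 0.437% as falls). Iars differed by -0.69 ± 0.13 and -0.50 ± 0.10 at its 2 probe sets, with adjusted p of 0.0083 and 0.0128. Lars differed by -0.47 ± 0.08 with an adjusted p of 0.00464, and its ratios were 0.606 to 0.849 in GLY hearts against 0.923 to 1.11 in AC5 hearts. Eprs, the enzyme for both glutamate and proline, and Nars differed by -0.62 ± 0.15 and -0.54 ± 0.13, both with an adjusted p of 0.0431. Each of those last calls was lost when any of 18 single hearts, of 24, was left out. The other Eprs probe sets gave -0.02, -0.50 and -0.44 and the other Nars probe set gave -0.41, and none of them was called.

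Other genes of the same pathway were read from lists with 1 probe set per gene. Over all genes read that way, 4.24% rose and 7.1% fell in ARG hearts, 1.34% rose and 4.12% fell in GLY hearts, and 0.066% rose and 0.11% fell in AC5 hearts. Among 8 mitochondrial translation factors 5 fell and 0 rose in ARG hearts, with a median log2 change of -0.30 against -0.01 for all genes. Gfm1, an elongation factor of mitochondrial ribosomes, had the largest fall, at -0.67 ± 0.12. In GLY hearts 3 of the 8 fell, with Gfm1 at -0.65 ± 0.12, and in AC5 hearts 0 were called. Within single hearts the list's median ran from -0.52 to -0.21 in ARG, -0.49 to -0.13 in GLY and -0.29 to -0.12 in AC5 hearts, against -0.02 to 0.04 in NTG hearts. Every transgenic heart thus lay below every NTG heart on this list. As values are ratios to the NTG level, NTG medians lie near 0 by construction. How often other groups of genes part in this way was not counted.

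Among 76 mitochondrial ribosomal protein genes 10 fell and 1 rose in ARG hearts, with a median of -0.09. Mrps25 fell most, by 1.31 on the log2 scale, and Mrps34 rose by 0.32. Among 13 other charging and editing enzymes 3 fell in ARG hearts, led by Gatb at -0.56 ± 0.07. Gatb belongs to the amidotransferase that makes mitochondrial glutaminyl-tRNA. Vars2 and Qrsl1 also fell there. On the cytosolic side, 1 of 3 scaffold genes of the multisynthetase complex, Eef1e1, rose by 0.50 in ARG hearts and 0.31 in GLY hearts. Of 42 cytosolic ribosomal protein genes 1 rose and 1 fell in ARG hearts, and of 5 cytosolic elongation factors Eef1a1 rose by 0.34.

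The amino acid response list holds the genes of the transcription factor ATF4 and of the kinase that senses uncharged transfer RNA. It also holds genes known to respond to them. Of its 32 measured genes 11 rose and 3 fell in ARG hearts, 0 rose and 3 fell in GLY hearts, and 5 rose and 0 fell in AC5 hearts. Asns, which makes asparagine, rose most in both ARG and AC5 hearts, by 1.67 ± 0.25 and by 2.92 ± 0.25 on the log2 scale. In AC5 hearts that is a fold of 7.57. The largest falls were those of Ddit4 in ARG hearts, at -0.90 ± 0.18, and of Vldlr in GLY hearts, at -0.54 ± 0.14. The list's median within single hearts ran from 0.04 to 0.33 in ARG, -0.11 to 0.19 in GLY and 0.03 to 0.46 in AC5 hearts, against -0.02 to 0.06 in NTG hearts. The highest value belonged to AC5 heart 5, the heart with the highest Sars, Gars and Aars ratios of its group. The lowest AC5 value, 0.03, belonged to heart 3, while heart 4, with the lowest ratios of those genes, had 0.09. Whether the list and the synthetases move together across hearts was not tested.

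**Figure D4:**
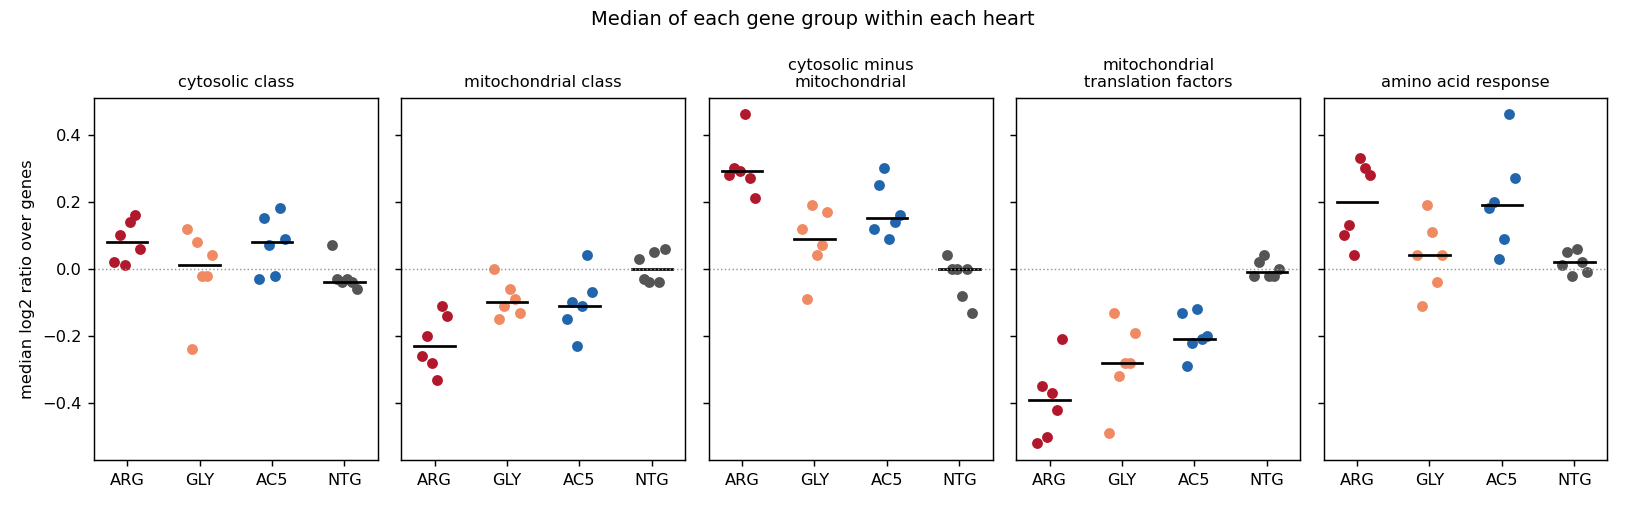
Median log2 ratio over the genes of each group within each heart, with the median of 6 hearts as a bar, for ARG, GLY, AC5 and NTG hearts. The cytosolic minus mitochondrial median lies between 0.21 and 0.46 in ARG hearts and between -0.13 and 0.04 in NTG hearts. The mitochondrial translation factors lie below the NTG hearts in every transgenic heart. How often other groups of genes part in this way was not counted.

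Markers of other cells moved with the ARG genotype. Of 8 macrophage markers 6 rose in ARG hearts, with a within-heart median of 0.29 to 1.19 in ARG hearts against -0.17 to 0.11 in NTG hearts, and of 6 fibroblast markers 3 rose. In AC5 hearts 0 markers of either list were called, and the macrophage median ran from -0.25 to 0.22. Markers of cardiomyocytes (6), endothelium (5), smooth muscle (4) and lymphocytes (3) gave 0 calls in ARG hearts. The part of the marker changes in the synthetase changes was not tested. In whole hearts fewer cells of a type and less RNA per cell cannot be told apart. The ratios hold no signal level, so whether a marker is expressed at all could not be read from them.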

How the data were processed

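RNA of 24 hearts was hybridised to 1 Affymetrix array each. RMA is named in the submitters' processing notes without a version. As deposited, the values form a linear ratio to the NTG level. That scale was read from the values and the step is not stated, so log2 was taken first, where the plan had assumed log2 values. Of 45101 probe sets 64 Affymetrix controls were left out. Symbols came from the platform annotation, in which 34945 probe sets had 1 symbol and 932 several. For class medians each gene kept 1 probe set by suffix, then lowest number. The fit used limma (version 3.58.1, under R version 4.3.3) on every array together, with a mean for each genotype, empirical Bayes moderation and Benjamini-Hochberg adjustment over 45037 probe sets. The median SE of a change was 0.0992, and the number of arrays limits this precision. Tests were checked on simulated data. Per the labels, the 6 hearts of a genotype are biological replicates.

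Members, gene lists (211 of 216 genes matched) and tests were chosen with earlier results of these data known. Genes given in full were, in each planned comparison, the called member probe sets with the 4 largest rises and the 4 largest falls, 1 probe set per gene, and per list the called genes with the largest rise and fall. Vars2, Qrsl1 and the genes not called were named after their values were seen. Replicate numbers were not taken as pairing the samples, since no compared genotypes had all same-numbered pairs correlate above 0.1. One promoter stretch is not reported here. Array medians and the alternatives are treated in the closing section. Summaries used Python (3.11.15) with the pandas (2.3.3) and numpy (2.4.6) packages, and plots used matplotlib (3.10.9).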

Additional observations from a re-analysis of the deposited data

Results flagged for a closer look

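Within a genotype, 4 of 80 groups of 6 hearts had 1 heart whose gap to the nearest other heart passed Dixon's 95% critical value as a share of the range, and chance alone gives about 1 in 20. GLY heart 3 had the highest Gars ratio of its group, 1.85, and the lowest Yars2 ratio at 1439442_x_at, 0.741. NTG heart 6 had the lowest Iars ratio at 1426705_s_at, 0.77. NTG heart 1 had a median log2 ratio of 0.07 over the cytosolic class, above the other NTG hearts.

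Changes against NTG hearts differed between transgenic genotypes by limma at 11 places. Over all probe sets 1.51% were called between ARG and GLY, 4.93% between ARG and AC5 and 0.693% between GLY and AC5 hearts. Between ARG and GLY hearts Nars2 differed by -0.36 on the log2 scale. Between ARG and AC5 hearts the differences were -0.35 for Iars, -0.4 for Hars2, -0.47 for Lars2, -0.41 for Nars2 and -0.43 for Yars2. Between GLY and AC5 hearts they were -0.62 for Eprs, -0.69 and -0.5 for the 2 Iars probe sets, -0.47 for Lars and -0.54 for Nars.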

How the results depend on the processing

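No change of a called member probe set reversed its sign under any alternative run. The gap between class medians was not read with array weights, with robust empirical Bayes moderation or with the compared genotypes alone. In the settings where it was read it stayed above 0. Leaving out 1 heart gave 0.25 to 0.36 in ARG, 0.13 to 0.20 in GLY and 0.17 to 0.23 in AC5 hearts against NTG. It gave 0.24 to 0.36 between ARG and GLY, and replicates 1 to 3 alone gave 0.27 in AC5 hearts.

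Counts of called member probe sets moved more, as did calls over all probe sets, and the cause was not tested. For ARG against NTG (12), quantile normalization gave 7, replicates 1 to 3 alone 4, and 1 probe set per gene 7, and leaving out 1 heart gave 10 to 15. For GLY against NTG (5), the values were 2 by quantile normalization, 9 and 1 for replicates 1 to 3 and 4 to 6, 3 with these genotypes alone, 2 without GLY hearts 1 and 3 and ARG heart 1, 3 at an adjusted p under 0.01 and 3 with 1 probe set per gene. Leaving out 1 heart gave 3 (GLY heart 1 or 3) to 8 (GLY heart 6). For AC5 against NTG (0), they were 9 by quantile normalization, 9 with array weights, 1 after median centring, 1 with the replicate set (1 to 3 or 4 to 6) as a term, 3 with these genotypes alone and 4 without those 3 arrays. Leaving out 1 heart gave 0 to 6, with 6 without AC5 heart 4 and 1 without GLY heart 3 or 6. Over all probe sets, quantile normalization gave 2400 calls for ARG, 633 for GLY and 398 for AC5 against NTG, beside 4355, 2286 and 64.

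For ARG against GLY (1), quantile normalization, median centring, either set of replicates, these genotypes alone and an adjusted p under 0.01 gave 0. Leaving out 1 heart gave 0 (GLY heart 2 or 4, ARG heart 4 or 5) to 6 (GLY heart 6). For ARG against AC5 (5), quantile normalization gave 1, the set as a term 8, replicates 1 to 3 alone 0, replicates 4 to 6 alone 1, these genotypes alone 3, leaving out the 3 arrays 8, an adjusted p under 0.01 2 and 1 probe set per gene 2. Leaving out 1 heart gave 2 (ARG heart 3) to 6, with 3 without AC5 heart 2, 5 or 6 or ARG heart 2 or 4. For GLY against AC5 (5), replicates 1 to 3 gave 2, replicates 4 to 6 gave 0, these genotypes alone 2, the stricter threshold 2 and 1 probe set per gene 3. Leaving out 1 heart gave 3 (any NTG heart, AC5 heart 1, 2, 3, 5 or 6, GLY heart 1, 2 or 3, ARG heart 2, 5 or 6) to 8 (GLY heart 6). Over all probe sets 2220 were called for ARG against AC5, with 244 in replicates 1 to 3 and 1370 in replicates 4 to 6. For GLY against AC5 the calls were 312, with 94 and 16 in the same sets.

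With the replicate block the counts were 13, 5, 1, 1, 4 and 6 in the same order of comparisons. Same-numbered hearts of ARG and NTG had correlations of deviations between -0.047 and 0.018, those of ARG and GLY between 0.053 and 0.492, and those of ARG and AC5 between -0.07 and 0.212, with 5 of 6 pairs over 0.1 in each of the last 2. Between ARG and GLY the block ended the Nars2 call (adjusted p = 0.052) and called Eprs at 1426713_s_at instead (0.0439), and between ARG and AC5 it ended the Yars2 call (0.0559). Array weights lay under 0.5 for GLY heart 1 (0.354), GLY heart 3 (0.312) and ARG heart 1 (0.478), and array medians ran from -0.048 to 0.087. The ratios hold no signal, so dim probe sets were not filtered.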
